A study of Mus musculus with 12 samples.

Results

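Fibroblast growth factor (FGF) signalling was followed in mouse embryonic stem cells through 10 genes chosen by name: the ligand genes Fgf3, Fgf4, Fgf5, Fgf8, Fgf10, Fgf15 and Fgf17, the receptor genes Fgfr1 and Fgfr2, and the feedback inhibitor gene Spry4. They are 10 genes of a table of 40039 loci, of which 23991 held enough counts for testing. The study profiled poly(A) RNA in 4 groups of 3 libraries each. The first group was Notch1-/- cells as embryoid bodies on day 6 of cardiac differentiation, the second was wild-type embryoid bodies on day 6, the third was undifferentiated Notch1-/- cells (day 0) and the fourth was undifferentiated wild-type cells. Notch1 encodes a receptor for signals between neighbouring cells. All cells carried the C57BL/6J background, and all were maintained in stem cell medium with 1000 U/ml of LIF, the factor that holds stem cells undifferentiated, on embryonic fibroblast feeders or on gelatin, without a statement of the support used for each library. Embryoid bodies, aggregates in which early embryonic tissues form, were started as hanging drops of 1000 cells. The labels do not state which part of Notch1 was deleted, or whether the Notch1-/- cells were 1 clone, and they call the 3 libraries of a group biological replicates without stating separate cultures, so the p-values cover only the variation among these libraries, which may be technical.

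FGF ligands are secreted proteins that bind receptor tyrosine kinases on the cell surface with heparan sulphate as a cofactor. The activated receptor recruits the docking protein FRS2 and adaptors that switch on RAS and the ERK kinases. ERK activity induces its own inhibitors, the Sprouty proteins and dual-specificity phosphatases, together with ETS transcription factors. In the early mouse embryo Fgf4 is expressed by the inner cell mass and drives stem cells towards readiness for lineage commitment, Fgf5 marks the epiblast after implantation, Fgf8 is required for cells to leave the primitive streak, and Fgf3, Fgf8, Fgf10 and Fgf15 are expressed in the heart field or its surrounding tissue. Fgf10 binds chiefly the epithelial form of the Fgfr2 protein.

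Not all 10 genes could be measured equally. Counts are the deposited reads per merged locus, and CPM is the usual count scaled for library depth, here after TMM scaling of the library totals. Reads that fall on exons shared by loci of opposite strands appear to be left out of the counts, since all 904 loci whose exons were 100% shared had 0 counts in all 12 libraries, and 363 of them still had a mean FPKM of at least 1. FPKM, the authors' value per length and library size, does not show this loss. Of the 10 genes, 8 were linked to a locus of their own. Fgf5, Fgf10 and Fgfr2 shared none of their exon length, Fgf4 shared 26.14%, Fgf3 28.76% and Fgfr1 47.05%, and these 6 genes were read from counts. Fgf15 (100% shared, 0 counts) and Spry4 (56.82% shared, 14 to 50 counts in a library) were read from FPKM. Fgf8 lay in a merged locus with Mgea5 and Npm3, and Fgf17 in a merged locus with Dmtn and Fam160b2. The transcript models known for these ligands alone, 4 for Fgf8 and 2 for Fgf17, were 100% shared with loci of the opposite strand, so neither ligand had a value of its own. Since no strand setting is stated, reads of overlapping opposite loci cannot be told apart in any shared exon.

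Notch1 itself (locus XLOC_020472, chromosome 2, 26301026 to 26363148, minus strand, mm9) had 6.80, 4.90 and 4.95 CPM in Notch1-/- libraries 1, 2 and 3 at day 6, against 38.0, 30.8 and 31.1 CPM in the wild type. Undifferentiated cells had 3.80, 3.87 and 4.59 CPM in Notch1-/- cells and 61.5, 24.7 and 34.0 CPM in the wild type. All 6 Notch1-/- libraries lay below all 6 wild-type libraries, with changes of -2.58 (SE 0.30, adjusted p = 6.79e-05) at day 6 and -3.29 (SE 0.30, adjusted p = 3.89e-05) at day 0. Library totals ran from 100637179 to 134662426 counts, and at this depth replicates differed by far more than counting error, with a chi-square per degree of freedom of 41.3 to 404.

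Fgf3, Fgf4 and Fgf15 lie side by side on chromosome 7 of mm9, in the order of Fgf3 (XLOC_032451, 152022740 to 152033924), Fgf4 (XLOC_032452, 152043868 to 152055071) and Fgf15 (XLOC_032453, 152082437 to 152086856), all on the plus strand. There were 9943 bases between the Fgf3 and Fgf4 loci and 27365 bases between the Fgf4 and Fgf15 loci, and the 3 loci spanned 64117 bases. Models of the minus strand ran across each of them. The minus-strand locus within Fgf4 (152043868 to 152047013) was 100% shared and had 0 counts. The locus opposite Fgf15 (152061090 to 152087969) shared 21.25% of its exon length and covered every Fgf15 exon. Over the 6 days Fgf3 rose and Fgf4 fell in both genotypes.

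**Figure D1:**
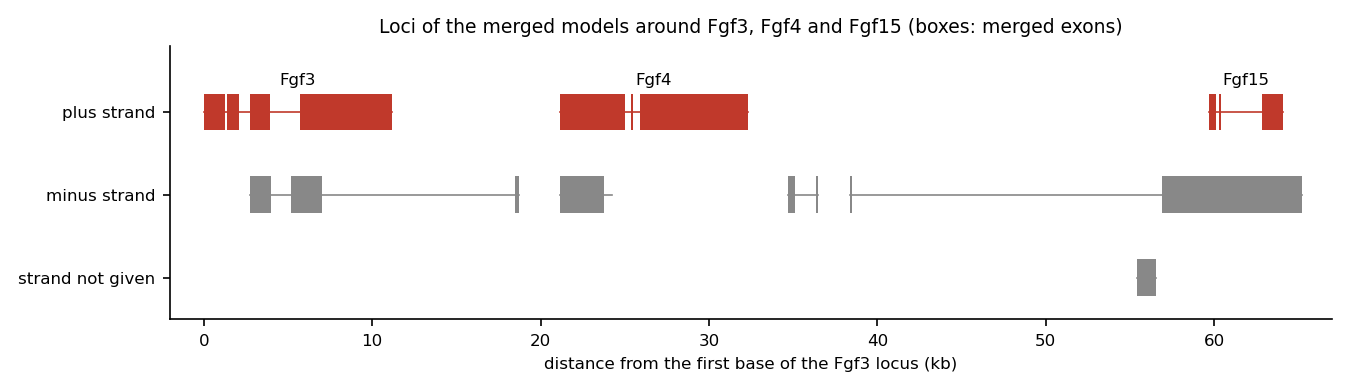
Merged exons (boxes) of the loci around Fgf3, Fgf4 and Fgf15, drawn to scale as the distance in kb from the first base of the Fgf3 locus, with loci of each strand in their own row and loci of no given strand in the lowest row. The 3 ligand genes (red) occupy the plus strand, and the exons of Fgf15 lie within a long exon of a minus-strand locus (grey).

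RefSeq promoter windows on GRCm38.p6 were at hand for 5 of the 10 genes, and those of the genes whose changes differed most are shown, Fgf3 and Fgf4 as neighbours with opposite changes, and Fgf5 and Fgfr2 as the genes whose change over the 6 days differed between the genotypes. Each window holds the 250 bases before the annotated start, in the direction of transcription, and capitals mark matches to the motifs searched on both strands. Fgf3 lies at chr7:144838362-144838611 (plus strand), Fgf4 at chr7:144861136-144861385 (plus strand), Fgf5 at chr5:98253934-98254183 (plus strand) and Fgfr2 at chr7:130266809-130267058 (minus strand).
Fgf3: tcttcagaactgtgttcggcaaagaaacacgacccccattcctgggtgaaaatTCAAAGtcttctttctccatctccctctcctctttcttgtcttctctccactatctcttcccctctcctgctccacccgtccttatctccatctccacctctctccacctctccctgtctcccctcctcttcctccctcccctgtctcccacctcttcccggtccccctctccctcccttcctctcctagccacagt
Fgf4: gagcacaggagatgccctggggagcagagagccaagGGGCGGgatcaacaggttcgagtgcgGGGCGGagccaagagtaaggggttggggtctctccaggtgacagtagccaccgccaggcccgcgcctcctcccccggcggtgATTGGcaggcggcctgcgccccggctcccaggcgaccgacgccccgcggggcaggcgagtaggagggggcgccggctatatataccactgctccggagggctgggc
Fgf5: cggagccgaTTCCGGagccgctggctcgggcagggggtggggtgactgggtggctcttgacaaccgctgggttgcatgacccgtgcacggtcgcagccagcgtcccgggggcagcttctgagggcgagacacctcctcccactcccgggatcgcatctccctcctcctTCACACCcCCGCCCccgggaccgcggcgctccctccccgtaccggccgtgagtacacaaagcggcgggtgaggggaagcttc
Fgfr2: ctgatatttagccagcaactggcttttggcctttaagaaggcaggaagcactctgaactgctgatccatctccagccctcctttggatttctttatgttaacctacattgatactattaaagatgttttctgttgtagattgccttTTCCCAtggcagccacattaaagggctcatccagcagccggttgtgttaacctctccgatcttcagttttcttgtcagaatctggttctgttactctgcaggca
Of the motifs searched, the TCF/LEF core CTTTGA occurred once in the Fgf3 window, 197 bases before the start on the opposite strand, and 13.8% of all 32851 promoter windows of this length held it. The GC box GGGCGG occurred in the Fgf4 window 214 and 188 bases before the start, on the strand shown, and in the Fgf5 window 74 bases before it on the opposite strand (32.7% of all windows). A CCAAT box (CCAAT, 33.8% of windows) lay 106 bases before the Fgf4 start on the opposite strand. The Fgf5 window also held, on the opposite strand, the ETS core CCGGAA 241 bases before the start (12% of windows) and the T-box core GGTGTGA 82 bases before it (3.3% of windows). The core TGGGAA bound by RBPJ, the DNA-binding partner of Notch receptors, occurred 104 bases before the Fgfr2 start on the opposite strand and in 21.6% of all windows. No matches overlapped, and TATAAA (12.4% of windows), the only form of the TATA box searched, was in none of the windows shown. Near its end the Fgf4 window held the similar letters tatatata, which were not searched. The search therefore does not show that this window lacks a TATA box. The Fgf4 and Fgf5 windows held 21 and 24 CG dinucleotides, Fgf3 held 4 and Fgfr2 held 2, against a median of 6 over all windows. These matches describe the letters only, and the table gives 1 start per gene, which may not be the start used in these cells.

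Over 6 days, 4 of the 6 genes read from counts rose in Notch1-/- cells (Fgf3, Fgf5, Fgf10 and Fgfr1) and 4 rose in the wild type (Fgf3, Fgf10, Fgfr1 and Fgfr2), while Fgf4 fell in both. Across all tested loci 35.9% were called in Notch1-/- cells (17.2% rose and 18.7% fell), and 43.1% in the wild type (18.4% rose and 24.7% fell). Calls are loci with an adjusted p under 0.05 in edgeR's quasi-likelihood test, adjusted by Benjamini and Hochberg's method over all tested loci. Between the genotypes at day 6, Fgf5 and Fgf4 were higher and Fgfr2 was lower in Notch1-/- embryoid bodies, 3 of 6 genes, against 28.1% of all loci (13.7% higher and 14.4% lower). At day 0 only Fgf4 was called among the 6, higher in Notch1-/- cells, against 9.56% of all loci (3.71% higher and 5.86% lower). The change over the 6 days differed between the genotypes for Fgf5 and Fgfr2, 1 in each direction, against 11.3% of all loci (6.36% positive and 4.92% negative). The median log2 change of the 6 genes was 1.85 in Notch1-/- cells and 1.59 in the wild type, against -0.02 and -0.12 over all tested loci. These comparisons share libraries, so their counts are not independent of each other. The genes were chosen with earlier results of these data known, so counts and medians set beside all loci are descriptions and no test. In bulk RNA, fewer cells of a type and less RNA per cell cannot be told apart, and this holds for every change given here.

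**Figure D2:**
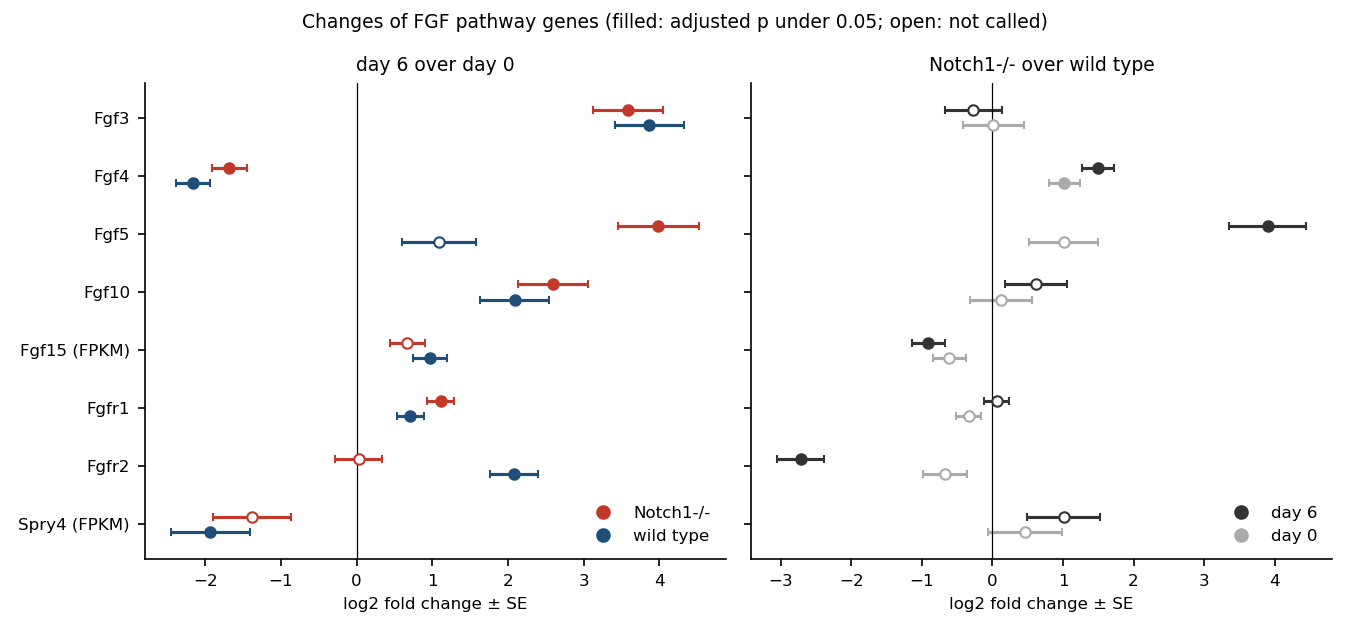
Log2 fold change with its standard error for each gene, day 6 over day 0 in Notch1-/- and wild-type cells (left) and Notch1-/- over wild type at day 6 and day 0 (right); filled points had an adjusted p under 0.05. Fgf5 and Fgfr2 stand apart at day 6, at 3.90 and -2.72, and Fgf4 is the only gene read from counts that fell with time.

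Fgf5 (XLOC_026950, chromosome 5, 98682444 to 98706049, plus strand) encodes a ligand that marks the epiblast after implantation. It had 160, 113 and 158 CPM in Notch1-/- embryoid bodies, against 4.85, 8.24 and 15.7 CPM in wild-type embryoid bodies. Every Notch1-/- library was far above every wild-type library. Before differentiation it had 7.22, 6.43 and 13.5 CPM in Notch1-/- cells and 1.57, 5.96 and 5.99 CPM in the wild type, where the Notch1-/- libraries were all higher but by a narrow margin. At day 6 the level was 15-fold higher in Notch1-/- than in wild-type embryoid bodies (log2 3.90, SE 0.54, adjusted p = 0.000252). Fgf5 rose 15.9-fold over the 6 days in Notch1-/- cells (log2 3.99, SE 0.54, adjusted p = 0.000185). In the wild type the change was 1.09 (SE 0.49) and was not called (adjusted p = 0.0906; 1.42 and adjusted p = 0.0439 without wild-type day 6 library 1). The difference between the genotypes in this change was 2.89 (SE 0.70, adjusted p = 0.0191), a call lost when wild-type day 6 library 2 was left out (2.80, adjusted p = 0.0581). At day 0 the difference of 1.01 (SE 0.49) was not called (adjusted p = 0.201).

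Fgf4, the ligand of the pluripotent inner cell mass, was the most abundant in stem cells of the 5 ligand genes with a value of their own, by mean FPKM. It had 96.6, 116 and 158 CPM in Notch1-/- embryoid bodies, against 37.9, 42.1 and 50.9 CPM in wild-type embryoid bodies, with no overlap between the groups. In undifferentiated cells it had 370, 510 and 302 CPM in Notch1-/- libraries and 213, 212 and 158 CPM in wild-type libraries, again with no overlap. Fgf4 fell 3.19-fold over the 6 days in Notch1-/- cells (log2 -1.68, SE 0.23, adjusted p = 0.00017) and 4.45-fold in the wild type (log2 -2.16, SE 0.23, adjusted p = 2.23e-05). The difference between these changes was 0.48 (SE 0.31, adjusted p = 0.362). The Notch1-/- level was 2.83-fold higher at day 6 (log2 1.5, SE 0.23, adjusted p = 0.000442). At day 0 it was 2.03-fold higher (log2 1.02, SE 0.22, adjusted p = 0.0134), a call lost without wild-type day 0 library 3 (0.89, adjusted p = 0.0567), without Notch1-/- day 0 library 2 (0.80, adjusted p = 0.064) and in a fit of the day 0 libraries alone (1.04, adjusted p = 0.0522). Since 26.14% of its exon length was shared, part of its reads are outside these counts; FPKM gave 1.32 at day 6 and 0.85 at day 0 for the same differences.

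Fgf3, a ligand of the primitive streak and of the otic and cardiac regions, rose strongly with differentiation in both genotypes from a low level. It had 11.6, 9.07 and 4.27 CPM in Notch1-/- embryoid bodies, against 11.8, 10 and 8.36 CPM in wild-type embryoid bodies. The day 6 groups overlapped, and Notch1-/- library 3 was the lowest of them. At day 0 the level was 0.714, 0.879 and 0.471 CPM in Notch1-/- cells and 1.12, 0.545 and 0.388 CPM in the wild type. Fgf3 rose 12.1-fold in Notch1-/- cells (log2 3.59, SE 0.46, adjusted p = 0.000122) and 14.6-fold in the wild type (log2 3.87, SE 0.46, adjusted p = 5.15e-05). The genotypes were not called different at day 6 (-0.27, SE 0.41, adjusted p = 0.654) or at day 0 (0.01, SE 0.43, adjusted p = 0.995). The minus-strand locus opposite Fgf3 (152025518 to 152041481, 73.86% shared) rose with it, by 3.94 in Notch1-/- cells and 3.36 in the wild type, at levels of at most 1.46 CPM.

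Fgf10 (XLOC_009014, chromosome 13, 119501350 to 119582624, plus strand) is a ligand of the second heart field and of lung and limb mesoderm. It had 86.6, 94.2 and 26.0 CPM in Notch1-/- embryoid bodies, against 48.2, 38.5 and 47.4 CPM in wild-type embryoid bodies. Notch1-/- library 3 was the lowest and the other 2 Notch1-/- libraries were the highest of the 6. Undifferentiated cells had 13.9, 7.49 and 12.7 CPM in Notch1-/- libraries and 11.4, 5.22 and 14.8 CPM in wild-type libraries. Fgf10 rose 6.06-fold in Notch1-/- cells (log2 2.6, SE 0.46, adjusted p = 0.00107) and 4.27-fold in the wild type (log2 2.09, SE 0.46, adjusted p = 0.00278). The difference between genotypes at day 6 was 0.62 (SE 0.44, adjusted p = 0.314), and 1.02 without Notch1-/- library 3 (adjusted p = 0.0652).

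Fgf15, a ligand of the FGF19 subfamily known from the mouse neural tube and heart field, could be read only from FPKM. It had 5.84, 4.85 and 8.47 FPKM in Notch1-/- embryoid bodies, against 12.9, 13.2 and 11.9 FPKM in wild-type embryoid bodies. The groups did not overlap. Undifferentiated cells had 2.09, 4.57 and 4.51 FPKM in Notch1-/- cells and 5.50, 5.96 and 6.45 FPKM in the wild type, also without overlap. On the log2(FPKM + 1) scale, tested with limma, the day 6 difference was -0.91 (SE 0.23, adjusted p = 0.0152), where 28.1% of the 18505 loci tested by FPKM were called, 13.1% higher and 15% lower. That call was lost without wild-type library 1 (-0.90, adjusted p = 0.0538), wild-type library 2 (-0.89, adjusted p = 0.0538) or Notch1-/- library 2 (-0.76, adjusted p = 0.0636) of day 6. At day 0 the difference of -0.61 (SE 0.23) was not called (adjusted p = 0.134; 6.83% of loci called by FPKM, 2.94% higher and 3.89% lower). The changes over time were not called different (-0.30, SE 0.33, adjusted p = 0.586; 12.9% of loci, 6.50% positive and 6.37% negative). Fgf15 rose in the wild type (0.97, SE 0.23, adjusted p = 0.00713; 42.2% of loci called by FPKM, 20.8% up and 21.4% down). In Notch1-/- cells the change was 0.67 (SE 0.23, adjusted p = 0.0509; 32.3% of loci called by FPKM, 18.1% up and 14.2% down), and it was called without day 0 library 2 (0.81, adjusted p = 0.045), day 0 library 3 (0.80, adjusted p = 0.0469) or day 6 library 2 (0.82, adjusted p = 0.043). It was 0.39 (adjusted p = 0.126) without day 0 library 1 and 0.47 (adjusted p = 0.179) without day 6 library 3. The locus on the opposite strand also rose by its own counts, by 1.2 in Notch1-/- cells (adjusted p = 0.0138; 0.0679 without day 6 library 3) and by 1.03 in the wild type (adjusted p = 0.0231). The wild-type call was lost without library 1 or 3 of day 0 or 1 or 2 of day 6 (adjusted p of 0.063 to 0.0686) and with upper quartile scaling (0.0588). Its difference between genotypes at day 6 was -0.32 (adjusted p = 0.497), and its part in the Fgf15 FPKM was not tested.

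For Fgf8 and Fgf17 only the merged loci and the loci opposite them gave values. The merged locus that holds Fgf8 (XLOC_018563, chromosome 19, 45811045 to 45858434, minus strand) had 170, 150 and 121 FPKM in Notch1-/- embryoid bodies, against 95.5, 89.0 and 105 FPKM in wild-type embryoid bodies. On the log2(FPKM + 1) scale it was higher in Notch1-/- at day 6 (0.59, SE 0.17, adjusted p = 0.0228, limma). Its counts, which leave out the shared Fgf8 exons, did not pass (0.03, SE 0.22, adjusted p = 0.927, edgeR). The plus-strand locus opposite Fgf8 (45806482 to 45822062, 40.2% shared) had 28.2, 21.6 and 15.8 CPM in Notch1-/- embryoid bodies, against 4.92, 4.44 and 7.39 CPM in wild-type embryoid bodies. Its day 0 level was at most 0.347 CPM in Notch1-/- cells and at most 0.563 CPM in the wild type. This locus rose in both genotypes, by 7.22 (SE 0.68, adjusted p = 1.61e-05) in Notch1-/- cells and 3.67 (SE 0.57, adjusted p = 0.000299) in the wild type, and the changes differed by 3.55 (SE 0.79, adjusted p = 0.0126). Its difference of 1.97 at day 6 (SE 0.52, adjusted p = 0.0131) was lost without wild-type library 1 (1.89, adjusted p = 0.0592) or library 2 (1.83, adjusted p = 0.0619). Which part of these reads came from Fgf8, the ligand of the streak and heart field, was not tested.

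The merged locus that holds Fgf17, a ligand related to Fgf8, lies on chromosome 14 (XLOC_011316, 70982946 to 71043811, minus strand). It had 82.1, 98.6 and 77.7 CPM in Notch1-/- embryoid bodies and 65.1, 66.2 and 68.5 CPM in wild-type embryoid bodies, and at day 0 it had 194, 300 and 175 CPM in Notch1-/- cells and 97.8, 235 and 119 CPM in the wild type. The whole locus fell by 1.37 (SE 0.29, adjusted p = 0.00288) in Notch1-/- cells and by 1.18 (SE 0.29, adjusted p = 0.00542) in the wild type, with no difference called at day 6 (0.37, adjusted p = 0.355). These counts leave out the exons of Fgf17. The plus-strand locus opposite Fgf17 (71033927 to 71043811, 51.34% shared) had 1.10, 1.49 and 1.53 CPM in Notch1-/- embryoid bodies, against 0.232, 0.288 and 0.299 CPM in wild-type embryoid bodies, without overlap (2.33, SE 0.57, adjusted p = 0.00955).

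**Figure D3:**
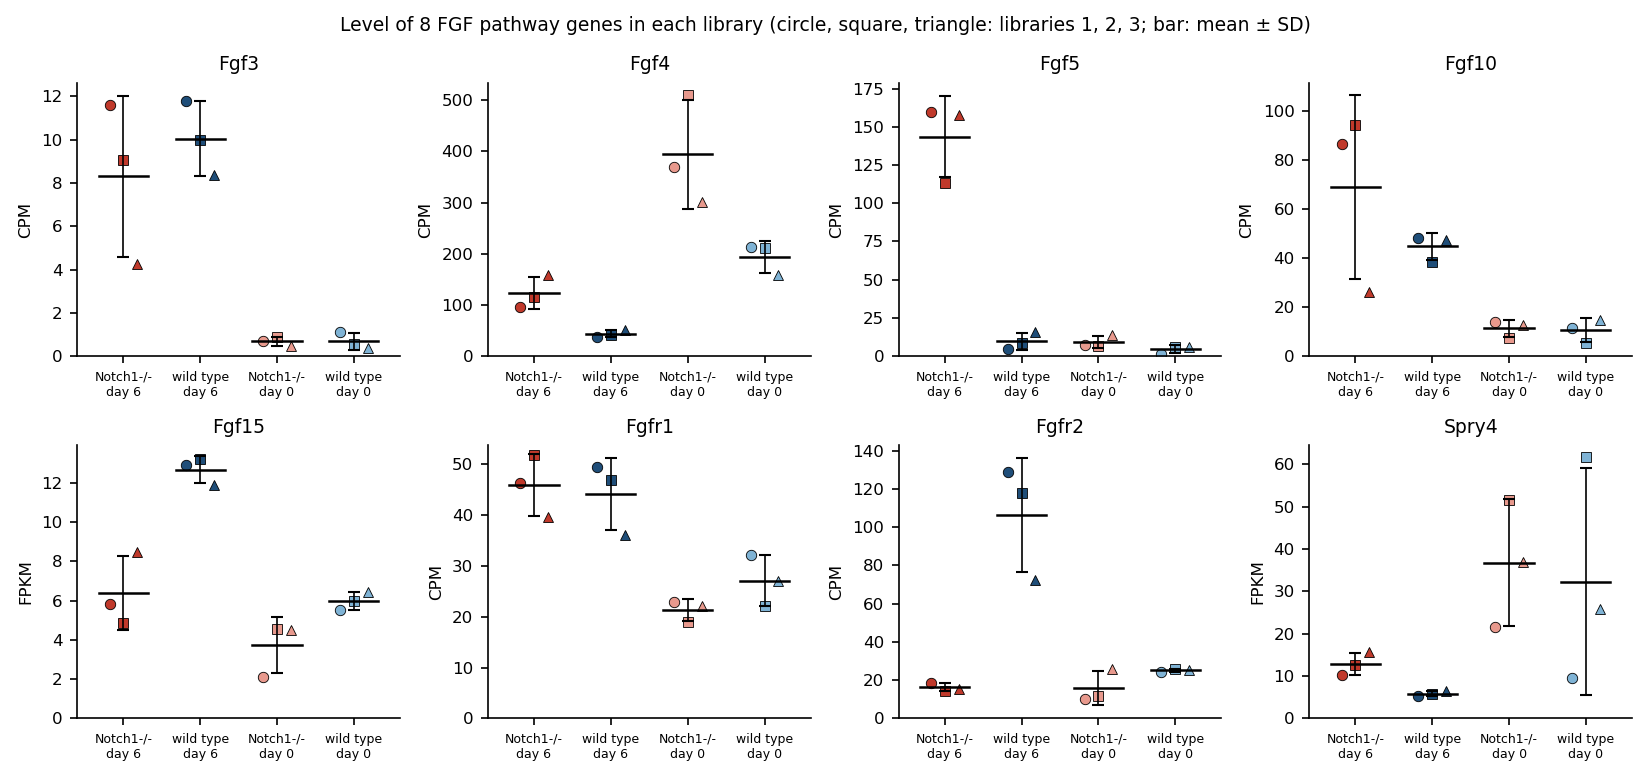
Level of 8 genes in every library, as CPM, or as FPKM for Fgf15 and Spry4, on linear axes from 0; points are libraries 1 (circle), 2 (square) and 3 (triangle), the long bar is the mean and the error bar the SD (n = 3). Fgf5 is high only in the 3 Notch1-/- day 6 libraries, at 113 to 160 CPM, and Fgfr2 only in the 3 wild-type day 6 libraries, at 72.6 to 129 CPM.

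Fgfr2 (XLOC_033608, chromosome 7, 137305875 to 137410322, minus strand) encodes the receptor whose epithelial and mesenchymal splice forms bind different ligands. It had 18.5, 14.5 and 15.6 CPM in Notch1-/- embryoid bodies, against 129, 118 and 72.6 CPM in wild-type embryoid bodies. The lowest wild-type library was several times above the highest Notch1-/- library. At day 0 it had 10, 11.7 and 25.8 CPM in Notch1-/- cells and 24.3, 25.7 and 25.5 CPM in the wild type, where Notch1-/- library 3 lay at the wild-type level. The day 6 level was 6.59-fold lower in Notch1-/- embryoid bodies (log2 -2.72, SE 0.33, adjusted p = 9.85e-05). Fgfr2 rose 4.24-fold in the wild type (log2 2.08, SE 0.32, adjusted p = 0.000289). In Notch1-/- cells the change was 0.03 (SE 0.31, adjusted p = 0.953), and its sign depended on the scaling (-0.14 with upper quartile scaling). The changes differed between the genotypes by -2.05 (SE 0.44, adjusted p = 0.0108), and this remained called when each of the 12 libraries was left out in turn, between -2.32 and -1.53. At day 0 the difference of -0.67 (SE 0.31, adjusted p = 0.183) was called only without Notch1-/- day 0 library 3 (-1.2, adjusted p = 0.0112).

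Fgfr1 (XLOC_034382, chromosome 8, 26623842 to 26700050, plus strand), the main FGF receptor gene of stem cells and epiblast, rose in both genotypes. It had 46.4, 51.9 and 39.7 CPM in Notch1-/- embryoid bodies, against 49.5, 47.0 and 36.0 CPM in wild-type embryoid bodies, with overlapping groups. Undifferentiated Notch1-/- cells had 22.9, 18.9 and 22.2 CPM, against 32.1, 22.1 and 27.0 CPM in undifferentiated wild-type cells. Fgfr1 rose 2.15-fold in Notch1-/- cells (log2 1.11, SE 0.18, adjusted p = 0.000668) and 1.63-fold in the wild type (log2 0.71, SE 0.18, adjusted p = 0.00759). Genotypes were not called different at day 6 (0.06, SE 0.18, adjusted p = 0.842; -0.03 by FPKM) or day 0 (-0.34, SE 0.18, adjusted p = 0.239). Its locus shared 47.05% of its exon length, partly with Letm2 on the opposite strand, so an unknown share of its reads is outside the counts. In wild-type embryoid bodies Fgfr1 lay below Fgfr2 by mean CPM (44.2 against 107) and above it by mean FPKM (42.7 against 15.1). Its CPM is therefore not compared with that of other genes.

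The other receptor genes were set beside these. Fgfr3 had 5.53, 3.18 and 3.45 CPM in Notch1-/- embryoid bodies, against 45.0, 39.1 and 25.5 CPM in wild-type embryoid bodies. It rose in the wild type (3.27, SE 0.59, adjusted p = 0.000847), was lower in Notch1-/- at day 6 (-3.17, SE 0.59, adjusted p = 0.00177), and its changes differed by -4.56 (SE 0.80, adjusted p = 0.00377). Fgfrl1, which encodes a receptor without a kinase domain, had 24.8, 23.8 and 15.3 CPM in Notch1-/- embryoid bodies, against 55.3, 64.4 and 55.0 CPM in wild-type embryoid bodies (-1.45, SE 0.22, adjusted p = 0.00047). Fgfr4, named after its values were seen to complete the family, was also lower at day 6 (-1.51, SE 0.47, adjusted p = 0.0292). Fgfr2, Fgfr3, Fgfr4 and Fgfrl1 were thus lower in Notch1-/- embryoid bodies by this test and Fgfr1 was not called, where 14.4% of all loci were lower; a set completed after its values were seen supports no statement about the family.

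**Figure D4:**
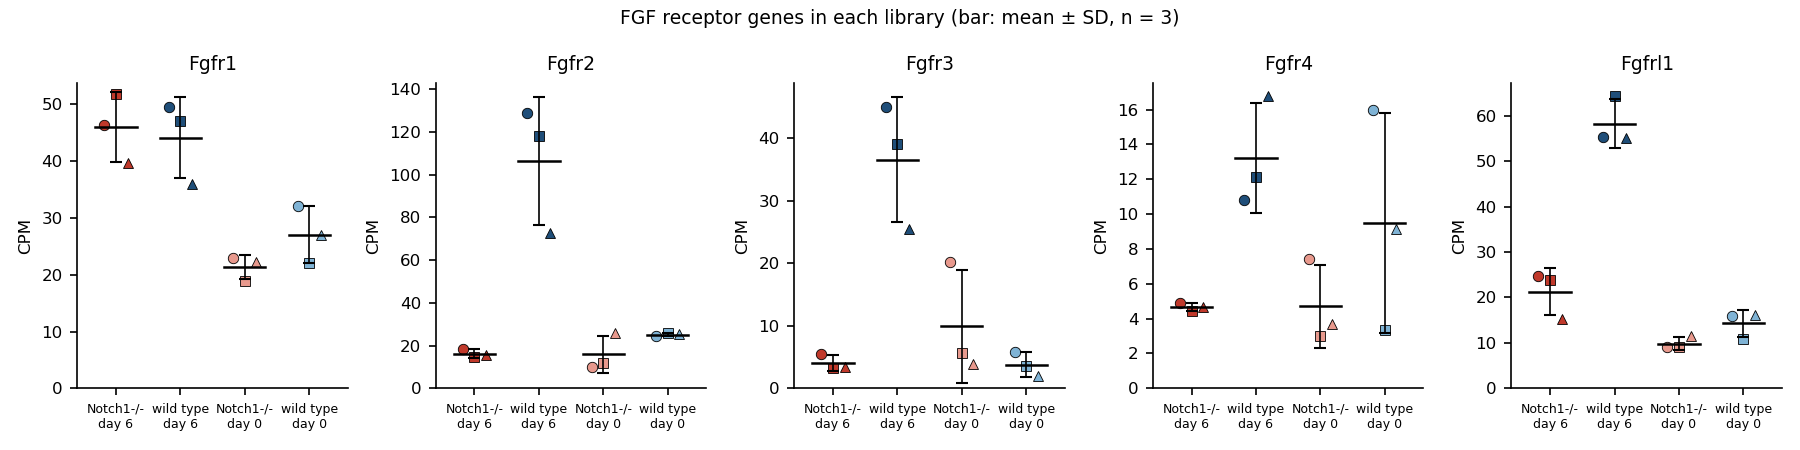
CPM of the 5 FGF receptor genes in every library on linear axes from 0, with mean and SD (n = 3). Fgfr2, Fgfr3 and Fgfrl1 are each highest in the wild-type day 6 libraries and lie below them in Notch1-/- day 6 libraries, while Fgfr1 overlaps between the genotypes at day 6. CPM leaves out gene length and part of the Fgfr1 reads, so heights are not compared between genes.

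Spry4 (XLOC_017109, chromosome 18, 38745805 to 38766199, minus strand) encodes a Sprouty protein that restrains ERK signalling below the receptor. It had 10.3, 12.7 and 15.6 FPKM in Notch1-/- embryoid bodies, against 5.27, 5.67 and 6.50 FPKM in wild-type embryoid bodies, with no overlap. At day 0 it had 21.6, 51.6 and 37.0 FPKM in Notch1-/- cells and 9.41, 61.7 and 25.8 FPKM in the wild type, and wild-type library 2 was the highest of all 12 and library 1 the lowest of the 6 at day 0. On the log2(FPKM + 1) scale Spry4 fell in the wild type (-1.93, SE 0.52, adjusted p = 0.0129, limma), and the change was -2.59 without day 0 library 1 and -1.30 without day 0 library 2. In Notch1-/- cells it was -1.38 (SE 0.52, adjusted p = 0.0673), and -1.71 without day 0 library 1 (adjusted p = 0.0412). The day 6 difference of 1.01 (SE 0.52) was not called (adjusted p = 0.179). The 14 to 50 counts on its unshared exons gave changes of the other sign that were not called, 0.12 (SE 0.41, adjusted p = 0.843) in Notch1-/- cells and 0.47 (SE 0.42, adjusted p = 0.389) in the wild type (edgeR). The opposite locus, linked to AC133601.1, had 47.3 CPM in wild-type day 0 library 2, against 2.15 and 7.48 CPM in libraries 1 and 3. This locus fell in the wild type too (-3.55, SE 0.80, adjusted p = 0.00358), and its part in the Spry4 FPKM was not tested.

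Per length, Fgfr1 was the most abundant of the 8 genes at day 6 and Fgf4 at day 0, by mean FPKM. Where exons are shared, as in Fgf3, Fgf4, Fgf15, Fgfr1 and Spry4, FPKM may hold reads of opposite loci, so the order is a description only. In Notch1-/- embryoid bodies Fgfr1 (41.8 ± 5.37 FPKM, SD, n = 3) and Fgf5 (37.2 ± 7.01) came first and overlapped, as did Fgf5 and Fgf4 (24.8 ± 6.51), followed without overlap by Spry4 (12.9 ± 2.62). Spry4 overlapped with Fgf10 (9.11 ± 4.89) and Fgf3 (7.32 ± 3.81), these overlapped with Fgf15 (6.39 ± 1.87), and Fgfr2 (2.36 ± 0.378) was last and apart. In wild-type embryoid bodies Fgfr1 (42.7 ± 4.92) stood apart from Fgfr2 (15.1 ± 3.89), which overlapped with Fgf15 (12.7 ± 0.696) and narrowly with Fgf4. Fgf3 (9.31 ± 1.51) and Fgf4 (9.23 ± 1.59) overlapped, as did Fgf10 (6.27 ± 0.857) and Spry4 (5.81 ± 0.627), and Fgf5 (2.64 ± 1.59) was last and apart. By mean, Fgf5 and Fgfr2 thus exchanged places between the genotypes, second and eighth in Notch1-/- and eighth and second in the wild type. In undifferentiated Notch1-/- cells Fgf4 (76.4 ± 17.1) was first and apart, Spry4 (36.7 ± 15) and Fgfr1 (22.3 ± 2.46) overlapped, and the other 5 genes averaged 0.648 to 3.72 FPKM. In undifferentiated wild-type cells Fgf4 (41.8 ± 8.42), Spry4 (32.3 ± 26.8) and Fgfr1 (28.6 ± 6.70) overlapped, and the other 5 averaged 0.632 to 5.97 FPKM. Fgf3 was the lowest of the 8 genes in both groups at day 0, though in the wild type its range overlapped with those of Fgf5 and Fgf10.

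Markers of cell types moved with these changes at day 6, where 13.7% of all loci were higher and 14.4% lower in Notch1-/-. The primed epiblast markers other than Fgf5 (4 of 6 measured) summed to 978 to 2278.3 CPM in Notch1-/- embryoid bodies and 294 to 327 CPM in wild-type embryoid bodies. Of the 4, 3 were higher in Notch1-/- and Lef1 was not called. Dnmt3b alone made up most of these sums, with 1042.5, 794 and 1926.7 CPM in Notch1-/- and 181, 203 and 218 CPM in the wild type. Stem cell markers (5 of 9 measured) summed to 364 to 557 CPM in Notch1-/- and 247 to 328 CPM in the wild type (2 higher), with Tdgf1 under 1 CPM in both and Nanog under 1 CPM in the wild type. Streak and nascent mesoderm markers (6 of 9 measured) summed to 80.9 to 139 CPM in Notch1-/- and 52.8 to 64.3 CPM in the wild type. The 3 called higher were T, Eomes and Mesp1, with Eomes under 1 CPM in both and T and Mesp1 under 1 CPM in the wild type. Most of the sum came from genes that were not called. These were Wnt3 (mean of 71.0 CPM in Notch1-/- and 30.9 CPM in the wild type) and Foxa2 (28.2 and 18.3 CPM). Markers of visceral and parietal endoderm (10 of 11 measured) went the other way, with 86.0 to 133 CPM in Notch1-/- and 465 to 553 CPM in the wild type and 8 lower; Ttr, Afp, Sox17 and Apoa1 were under 1 CPM in Notch1-/- and Sox17 in the wild type. Endothelial markers (4 of 6 measured) summed to 37.8 to 50.1 CPM in Notch1-/- and 150 to 213 CPM in the wild type, all 4 lower, with Tie1 under 1 CPM in Notch1-/-. Cardiac progenitor markers (7 of 9 measured) summed to 109 to 367 CPM in Notch1-/- and 512 to 825 CPM in the wild type, 5 of them lower, with Nkx2-5 under 1 CPM in both and Tbx5 in Notch1-/-. Neural markers (5 of 6 measured) summed to 43.8 to 77.7 CPM in Notch1-/- and 24.9 to 35.0 CPM in the wild type, with Nes and Hes5 higher and Pax6, Neurog2 and Hes5 under 1 CPM in both. The part of these shifts in the differences of Fgf5, Fgf4, Fgfr2 and the other receptor genes was not tested. Of the markers under 1 CPM, Tdgf1 shared 92.95% of its exon length, Sox17 90.45%, T 86.87% and Eomes 78.83%. Mesp1 shared 63.16%, Pax6 56.98% and Nanog 53.72%. Reads on shared exons appear to be outside the counts, so a low CPM does not show that these genes were near absent.

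Fibroblast markers, which feeder cells would bring, moved with the day and the genotype, but not all in the same way. The 16 of 16 measured markers summed to 104 to 149 CPM in Notch1-/- embryoid bodies, 1100.1 to 1515.6 CPM in wild-type embryoid bodies, 414 to 1673.1 CPM in undifferentiated Notch1-/- cells and 796 to 2630.3 CPM in undifferentiated wild-type cells. At day 6, 3 were higher and 9 lower in Notch1-/-, against 13.7% and 14.4% of all loci. Twist2, Postn, Lum, S100a4 and Fap were under 1 CPM in Notch1-/- embryoid bodies, as were S100a4, Mfap5 and Fap in wild-type embryoid bodies. Fgf7, a ligand made by mesenchymal cells, had 21.3, 86.6 and 136 CPM in Notch1-/- day 0 libraries 1, 2 and 3, where the mean log2 CPM of the fibroblast markers was 3.90, 5.03 and 5.61. Wild-type day 0 libraries had 36.1, 41.3 and 70.2 CPM of Fgf7 and fibroblast means of 4.98, 4.29 and 6.09. At day 6 Fgf7 had 0.180, 0.289 and 0.268 CPM in Notch1-/- and 1.11, 1.29 and 1.44 CPM in wild-type embryoid bodies. It fell by 8.36 (SE 0.66, adjusted p = 6.84e-06) in Notch1-/- cells and by 5.26 (SE 0.57, adjusted p = 2.37e-05) in the wild type, and the part of the fibroblast markers in this was not tested.

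Of 15 other genes of the FGF family, 11 could be tested, among them Fgf12, Fgf13 and Fgf14, which encode intracellular factors rather than secreted ligands. In Notch1-/- cells 4 rose, Fgf12, Fgf13 and Fgf14 among them, and 3 fell over the 6 days (median 0.94). In the wild type 1 rose and 5 fell (median -1.30). All loci had medians of -0.02 and -0.12. Of them 17.2% rose and 18.7% fell in Notch1-/- cells, and 18.4% rose and 24.7% fell in the wild type. The wild-type falls numbered 3 when library 1 or 3 of day 0 or library 1 or 2 of day 6 was left out. Fgf14, an intracellular FGF homologous factor, had 1.49, 1.30 and 3.71 CPM in Notch1-/- embryoid bodies, against 0.116, 0.212 and 0.376 CPM in wild-type embryoid bodies (3.21, SE 0.50, adjusted p = 0.000591). Its change over time was 3.25 in Notch1-/- cells and -1.31 in the wild type (adjusted p = 0.000435 and 0.0437), a difference of 4.56 (SE 0.70, adjusted p = 0.00157). Fgf13, of the same subgroup, rose in Notch1-/- cells (1.8, SE 0.29, adjusted p = 0.00052). Its higher level at day 6 (0.98, adjusted p = 0.021) was lost without library 2 or library 3 of either genotype (adjusted p of 0.0576 to 0.0904). Its interaction (1.54, adjusted p = 0.0263) was lost without 7 of the 12 libraries: wild-type day 0 library 1, all wild-type day 6 libraries, Notch1-/- day 0 library 2 and Notch1-/- day 6 libraries 2 and 3 (adjusted p of 0.051 to 0.0772). Fgf12, the third of this subgroup named here, had 0.265, 0.355 and 0.462 CPM in wild-type embryoid bodies, against 0.0366, 0.0426 and 0.0759 CPM in undifferentiated wild-type cells (2.79, SE 0.47, adjusted p = 0.000552), and it rose in Notch1-/- cells too (2.50, SE 0.47, adjusted p = 0.00145). Fgf2, a broadly acting ligand, fell by 3.14 (SE 0.52, adjusted p = 0.000634) in Notch1-/- cells and by 4.57 (SE 0.58, adjusted p = 7.85e-05) in the wild type, from exons 88.7% shared. At day 6 3 of the 11 were higher, Fgf13 and Fgf14 among them, and 1 was lower in Notch1-/-. Over all loci 13.7% were higher and 14.4% lower. The higher genes numbered 1 or 2 as each of the 6 libraries was left out. The lower one was Fgf7 (-2.37, SE 0.55, adjusted p = 0.00717). In the interaction 4 were positive and 1 negative, against 6.36% and 4.92% of all loci, with 1 to 5 positive as each library was left out. Fgf7 was the negative one (-3.10, SE 0.73, adjusted p = 0.0169). At day 0 only Fgf1, the acidic FGF, was called of the 11 (-1.86, SE 0.50, adjusted p = 0.0355), against 9.56% of all loci. That call was lost without wild-type library 1 (adjusted p = 0.137) or 3 (0.0832) or Notch1-/- library 1 (0.0632) or 2 (0.126). Fits of the day 0 libraries alone lost it too, without a block (0.129) and with the replicate number as a block (0.0797). With the block across all libraries it stayed called (-1.78, adjusted p = 0.0217).

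Of 13 other receptor and co-receptor genes 11 could be tested, and at day 6 1 was higher and 6 were lower in Notch1-/- embryoid bodies (median -1.31, against 0.01 over all loci; 13.7% of loci were higher and 14.4% lower). Flrt2, which encodes a membrane protein of the FLRT family, some of which bind FGF receptors, had 4.52, 5.42 and 3.81 CPM in Notch1-/- embryoid bodies, against 61.4, 72.5 and 67.9 CPM in wild-type embryoid bodies (-3.87, SE 0.55, adjusted p = 0.000303). It fell in Notch1-/- cells (-2.87) and rose in the wild type (1.63), a difference of -4.50 (SE 0.73, adjusted p = 0.00217). Flrt3, of the same family, was lower too (-1.8, SE 0.26, adjusted p = 0.000368). The glypican gene Gpc4, which encodes a heparan sulphate proteoglycan of the cell surface, was the higher one, with 93.3, 76.0 and 109 CPM in Notch1-/- embryoid bodies, against 23.2, 27.8 and 39.7 CPM in wild-type embryoid bodies (1.62, SE 0.21, adjusted p = 0.000159). Its change over time differed between the genotypes by 2.23 (SE 0.29, adjusted p = 0.000614). Over the 6 days 4 genes rose and 2 fell in Notch1-/- cells, against 17.2% and 18.7% of all loci. In the wild type 5 rose and 3 fell, against 18.4% and 24.7% of all loci. Gpc3, another glypican gene, rose in both, by 2.46 (SE 0.30) in Notch1-/- cells and 3.89 (SE 0.32) in the wild type, and the syndecan gene Sdc4 fell in both, by 1.75 (SE 0.24, adjusted p = 0.000198) in Notch1-/- cells and by 0.97 (SE 0.24, adjusted p = 0.00554) in the wild type. At day 0 only Sdc4 was called (1.08, SE 0.24, adjusted p = 0.0143), against 9.56% of all loci. It was not called without wild-type library 3 (0.94, adjusted p = 0.059). Fits of the day 0 libraries alone did not call it, without a block (1.09, adjusted p = 0.0786) or with the replicate number as a block (1.04, adjusted p = 0.0546). With the block across all libraries it stayed called (1.02, adjusted p = 0.0154). In the interaction 1 was positive and 4 were negative, against 6.36% and 4.92% of all loci.

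Of 18 listed feedback and target genes of the pathway 13 could be tested, and at day 6 2 were higher and 2 lower in Notch1-/- embryoid bodies (median 0.29), against 13.7% higher and 14.4% lower over all loci, a share near the background. The ETS factor gene Etv1 had 37.8, 47.3 and 42.4 CPM in Notch1-/- embryoid bodies, against 18.3, 17.7 and 17.3 CPM in wild-type embryoid bodies (1.26, SE 0.22, adjusted p = 0.00123). Dusp6, the ERK phosphatase gene, had 236, 330 and 212 CPM in Notch1-/- embryoid bodies, against 121, 125 and 147 CPM in wild-type embryoid bodies (0.99, SE 0.24, adjusted p = 0.00961; 0.77 and adjusted p = 0.0504 without Notch1-/- library 2). Spry1, a Sprouty gene like Spry4, went the other way, with 21.1, 15.4 and 24.6 CPM in Notch1-/- embryoid bodies, against 42.0, 44.3 and 45.4 CPM in wild-type embryoid bodies (-1.11, SE 0.21, adjusted p = 0.00192). A fit of the day 6 libraries alone, which called 11055 loci against 6741, gave 6 higher and 4 lower. The count of lower genes was 1 without Notch1-/- library 2 or 3 or wild-type library 1 or 2, and that of higher genes was 1 without Notch1-/- library 2.

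Over the 6 days 4 of these 13 genes rose and 3 fell in Notch1-/- cells, against 17.2% and 18.7% of all loci. In the wild type 6 fell, against 24.7% of all loci. The wild-type falls numbered 3 to 5 as each library was left out, 3 without day 6 library 3, and DESeq2 gave 1 rise and 5 falls. Il17rd, a membrane inhibitor of FGF receptors, rose in Notch1-/- cells (1.73, SE 0.24, adjusted p = 0.000231) and changed by 0.43 (SE 0.24, adjusted p = 0.162) in the wild type. The ETS factor gene Etv5 changed by -0.06 (SE 0.17, adjusted p = 0.816) in Notch1-/- cells and fell in the wild type (-1.55, SE 0.17, adjusted p = 3.01e-05). Spry2 fell in both, by 0.80 (SE 0.23, adjusted p = 0.0145) in Notch1-/- cells and by 1.04 (SE 0.23, adjusted p = 0.00285) in the wild type. The immediate-early gene Egr1 fell in both, by 4.08 (SE 0.37) in Notch1-/- cells and by 2.57 (SE 0.35) in the wild type, and Fos fell in both too, by 3.81 (SE 0.73, adjusted p = 0.0017) in Notch1-/- cells and by 2.37 (SE 0.69, adjusted p = 0.0142) in the wild type. At day 0 3 of the 13 were lower in Notch1-/- cells, against 5.86% of all loci. Etv5 had 306, 268 and 237 CPM in undifferentiated Notch1-/- cells, against 442, 658 and 553 CPM in undifferentiated wild-type cells (-1.03, SE 0.17, adjusted p = 0.00261). Spry1 was lower as well (-1.11, SE 0.21, adjusted p = 0.00562; 0.0511 in a fit of the day 0 libraries alone). Il17rd was lower (-0.93, SE 0.24, adjusted p = 0.0293), a call lost without wild-type library 1 or 3 or Notch1-/- library 2 or 3 (adjusted p of 0.0885 to 0.0981). A fit of the day 0 libraries alone lost it too (-0.91, adjusted p = 0.148). In the interaction 3 genes were positive, against 6.36% of all loci. They were Etv5 (1.49, SE 0.24, adjusted p = 0.00212), Etv1 (1.33, SE 0.31, adjusted p = 0.0153) and Il17rd (1.30, SE 0.34, adjusted p = 0.0266). The Il17rd call was lost without wild-type library 1 or 3 of day 0, any wild-type library of day 6, Notch1-/- day 0 library 3, or Notch1-/- library 1 or 2 of day 6 (adjusted p of 0.0511 to 0.0709).

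**Figure D5:**
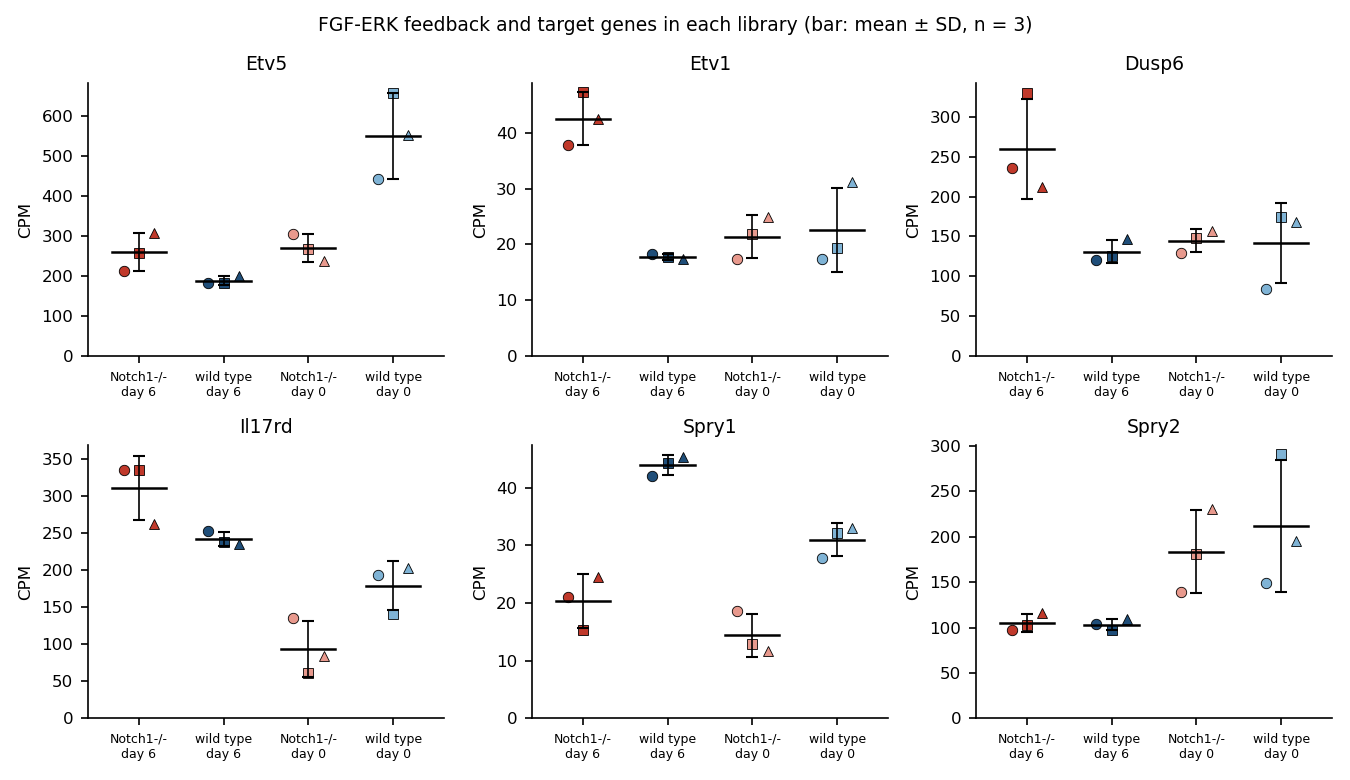
CPM of 6 feedback and target genes of FGF-ERK signalling in every library on linear axes from 0, with mean and SD (n = 3). At day 6 Etv1 and Dusp6 lie higher and Spry1 lower in Notch1-/- libraries, and at day 0 Etv5 and Spry1 lie lower in Notch1-/- libraries.

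Among adaptors and kinases that carry the signal from receptor to ERK, 14 of 21 genes could be tested, with 1 higher and 3 lower in Notch1-/- embryoid bodies at day 6 (median -0.17), near the 13.7% higher and 14.4% lower over all loci. Frs2, the gene of the docking protein that binds FGF receptors, had 102, 101 and 93.7 CPM in Notch1-/- embryoid bodies, against 247, 245 and 198 CPM in wild-type embryoid bodies (-1.22, SE 0.13, adjusted p = 4.21e-05). It rose in the wild type (1.27, SE 0.13, adjusted p = 1.81e-05), and its changes differed by -1.47 (SE 0.18, adjusted p = 0.000463). That was the only interaction called among the 14, against 11.3% of all loci. Sos2, a RAS exchange factor gene (-0.70, SE 0.15, adjusted p = 0.0042), and Ksr1, the gene of a scaffold for the kinase cascade (-1.61, SE 0.39, adjusted p = 0.00867), were lower too. Over the 6 days 4 of the 14 rose and 3 fell in Notch1-/- cells, against 17.2% and 18.7% of all loci, and upper quartile scaling gave 2 and 5. In the wild type 4 rose and 2 fell, against 18.4% and 24.7% of all loci. Sos2 rose in both (1.01 and 1.52, in Notch1-/- and wild-type cells), and Gab1, an adaptor gene, fell in both (-1.51 and -1.43). Grb2, the adaptor that brings SOS proteins to receptors, fell in Notch1-/- cells (-0.70, SE 0.11, adjusted p = 0.000565) and in the wild type (-0.31, SE 0.11, adjusted p = 0.0401). At day 0 only the kinase gene Rps6ka1 was called (0.50, SE 0.14, adjusted p = 0.0436), against 9.56% of all loci. It was not called without wild-type library 1 (0.141) or 3 (0.0748), or without Notch1-/- library 1 (0.0825) or 2 (0.111). Fits of the day 0 libraries alone did not call it, without a block (adjusted p = 0.218) or with the replicate number as a block (0.125). With the block across all libraries it stayed called (0.49, adjusted p = 0.0395).

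Heparan sulphate, the cofactor of ligand binding, is made and edited by enzymes of which all 12 listed genes could be tested. At day 6 1 was higher and 3 were lower in Notch1-/- embryoid bodies (median -0.25), against 13.7% higher and 14.4% lower over all loci. In a fit of the day 6 libraries alone, which called 11055 loci, 7 were lower. Hs6st1, which adds 6-O-sulphate, was higher at day 6 (0.72, SE 0.16, adjusted p = 0.00488) and at day 0 (0.90, SE 0.16, adjusted p = 0.00359) and fell over the 6 days in Notch1-/- cells (-0.84, SE 0.16) and in the wild type (-0.66, SE 0.16). Hs3st1, which adds 3-O-sulphate, was lower at day 6 (-1.99, SE 0.49, adjusted p = 0.00968), as was the N-sulphation gene Ndst1 (-0.93, SE 0.14, adjusted p = 0.000389), whose exons were 69.03% shared. Sulf1, which removes 6-O-sulphate outside the cell, had 16.1, 31.4 and 41.6 CPM in undifferentiated Notch1-/- cells, against 97.7, 98.8 and 175 CPM in undifferentiated wild-type cells (-2.06, SE 0.30, adjusted p = 0.00121). It rose in Notch1-/- cells (2.65, SE 0.31, adjusted p = 6.34e-05) and in the wild type (0.84, SE 0.29, adjusted p = 0.0333), and its changes differed by 1.81 (SE 0.41, adjusted p = 0.0143). The changes of Hs3st1 (-3.57, SE 0.69, adjusted p = 0.00631) and Ndst1 (-0.97, SE 0.19, adjusted p = 0.00726) differed in the other direction. Over the 6 days 2 of the 12 rose and 3 fell in Notch1-/- cells, against 17.2% and 18.7% of all loci. In the wild type 6 rose and 1 fell, against 18.4% and 24.7% of all loci. The wild-type rises numbered 3 when any 1 of the day 6 libraries was left out and with upper quartile scaling. Ndst2 rose in both (1.04 and 1.05, in Notch1-/- and wild-type cells), and Hs2st1, which adds 2-O-sulphate, rose in the wild type (0.49, SE 0.11, adjusted p = 0.00354).

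Genes that lie near or below FGF signalling in the streak and somites of the mouse embryo were the last list, of which 7 of 10 could be tested, Dusp6 among them. At day 6 5 were higher and 1 was lower in Notch1-/- embryoid bodies (median 2.78, against 0.01 over all loci), where 13.7% of all loci were higher. Wnt3a, a Wnt ligand gene of the streak, had 3.32, 3.83 and 2.33 CPM in Notch1-/- embryoid bodies, against 0.182, 0.118 and 0.265 CPM in wild-type embryoid bodies (4.06, SE 0.51, adjusted p = 0.000132). Mesp1, a regulator of early cardiac mesoderm, had 6.01, 5.69 and 3.15 CPM in Notch1-/- embryoid bodies, against 0.141, 0.144 and 0.231 CPM in wild-type embryoid bodies (4.84, SE 0.60, adjusted p = 0.000121). Mesp2, a somite regulator, had 0.990, 0.827 and 0.596 CPM in Notch1-/- embryoid bodies and at most 0.0171 CPM in wild-type embryoid bodies (adjusted p = 0.000166). T, the streak gene Brachyury, had 1.54, 1.23 and 0.499 CPM in Notch1-/- embryoid bodies, against 0.0993, 0.102 and 0.274 CPM in wild-type embryoid bodies (2.78, adjusted p = 0.00318). T, Mesp1 and Mesp2 shared 86.87%, 63.16% and 71.34% of their exon length, so their counts cover little of these genes. The lower gene was Cdx2, a regulator of posterior and trophoblast identity (-3.12, SE 0.61, adjusted p = 0.00251). In Notch1-/- cells all 7 rose over the 6 days, against 17.2% of all loci. In the wild type 4 rose and 1 fell, against 18.4% and 24.7% of all loci. T had at most 0.01 CPM in undifferentiated Notch1-/- cells. The rises in Notch1-/- cells numbered 5 without day 6 library 2. Cdx2 rose by 2.19 (SE 0.60) in Notch1-/- cells and by 4.08 (SE 0.64) in the wild type, and Wnt3a changed by 1.70 (SE 0.45) in Notch1-/- cells and by -1.76 (SE 0.48) in the wild type. The rise of T in the wild type (2.52, adjusted p = 0.00977) was lost without day 6 library 3 (1.89, adjusted p = 0.0529). In the interaction 3 were called, all positive, against 6.36% of all loci. Wnt3a was the first of them (3.46, SE 0.66, adjusted p = 0.006). Mesp1 had an adjusted p of 0.0198, and of 0.166 without wild-type day 0 library 3. T had an adjusted p of 0.0229, and of 0.0508 to 0.0722 without wild-type library 1 or 3 of day 0 or 1 or 2 of day 6. At day 0 the smallest adjusted p of the 7 was 0.189, for Cdx2.

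The genes closest to the 6 genes read from counts in their pattern over the 12 libraries were found by Pearson's r of log2 CPM, as a description, since all points share the same groups and days. For Fgf5 these were Larp7 (0.972), Taco1 (0.966) and Tasp1 (0.949). For Fgfr2 they were the T-box gene Tbx4 (0.968), the thrombin receptor gene F2r (0.964) and Sgce (0.963). Fgf4 was closest to the integrin gene Itga6 (0.987), Pycard (0.984) and Mpzl2 (0.976). Fgf3 was closest to the chemokine receptor gene Cxcr4 (0.985), Mkln1 (0.983) and Rsrc1 (0.977). Fgf10 was closest to Rftn1 (0.961), and to Smad1 and Galnt10 (both 0.956). Fgfr1 was closest to Olfm1 (0.980), the Wnt ligand gene Wnt5b (0.976) and Frmd4b (0.971).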

How the data were processed

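Poly(A) RNA of 12 libraries in 4 groups of 3 was sequenced in paired reads of 100 bases. Per the submitters' processing notes the reads were handled on mm9 with Cufflinks 2.1.1, TopHat2 2.0.8, DESeq and HTSeq 0.5.4p3. The deposited tables, made by the authors, hold read counts per merged locus and FPKM per locus; the strand setting of the counting is not given in the sources used here.

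Loci carry no gene names, so they were linked to GENCODE M21 genes by the lengths of their introns (60 bases or more) on the same chromosome and strand, in the order of neighbouring links, with no coordinate converted. Of 40039 loci, 17905 were linked to 1 gene, 1773 to several and 20361 to none; in a check with positions offset by 2000000 bases, 34 of the 24053 loci with introns were linked. The share of a locus's exon length that is covered by exons of other loci was computed from the deposited transcript models.

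Counts of all 12 libraries were fitted together in edgeR 4.0.16 (R 4.3.3) with TMM scaling, its filter on low counts and the quasi-likelihood test; p-values were adjusted over the 23991 loci tested. Fgf15, Spry4 and the FPKM of the merged Fgf8 locus were tested with limma 3.58.1 on log2(FPKM + 1). This test covered 18505 loci with a mean FPKM of at least 0.1, on a scale that understates changes of low values. Both scripts were tested on simulated data. The change of the day difference between genotypes is the interaction of the model. Alternatives were upper quartile and RLE scaling, no filter, fits of the compared groups alone, a replicate block, FPKM with a pseudocount of 1 or 0.1, DESeq2 1.42.0, and leaving out each library.

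Replicate numbers come from the titles. Same-numbered libraries of the genotypes deviated together at day 0 (correlations of 0.398, 0.275 and 0.165), so the day 0 libraries may be paired. The main fit holds no block, so the day 0 values given in the results are unpaired unless a block is named. The 3 correlations also passed 0.1 between Notch1-/- day 6 and wild-type day 0 libraries (0.227, 0.18 and 0.125), which are not compared directly, and 12 of all 18 same-numbered pairs did; in the other direct comparisons at least 1 of the 3 pairs did not. With the number as a block among the 6 day 0 libraries, Fgf4 remained called (1.02, adjusted p = 0.00769, edgeR). Fgf3, Fgf5, Fgf10, Fgfr1 and Fgfr2 remained not called in that fit.

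Genes named are the 10 members, Notch1, up to 3 called genes with the smallest p per list and comparison, and the 3 genes with the highest Pearson correlation to each member read from counts (mean log2 CPM of at least 2). The members and lists were chosen with earlier results of these data known. Promoter sequences are from RefSeq (GRCm38.p6). A listed marker gene is not reported here.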

Additional observations from a re-analysis of the deposited data

Results flagged for a closer look

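The change over the 6 days differed between the genotypes for 2 of the 6 genes read from counts, tested as the interaction of genotype and day, where 11.3% of all loci were called. Fgf5 changed by 3.99 (log2) in Notch1-/- cells and by 1.09 in the wild type, a difference of 2.89 (SE 0.70, adjusted p = 0.0191, edgeR). With wild-type day 6 library 2 left out, Fgf5 no longer passed (2.80, adjusted p = 0.0581). Fgfr2 changed by 0.03 in Notch1-/- cells and by 2.08 in the wild type, a difference of -2.05 (SE 0.44, adjusted p = 0.0108, edgeR).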

How the results depend on the processing

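The fall of Fgf4, the rise of Fgf3, Fgf10 and Fgfr1 in both genotypes and the day 6 differences of Fgf5, Fgf4 and Fgfr2 stayed called as each library was left out. Day 0 was the least stable comparison: its 2294 called loci became 706 in a fit of the day 0 libraries alone, 1263 and 1433 by FPKM with a pseudocount of 1 and 0.1, 3720 by DESeq2, and 1124 to 5983 as libraries were left out. Of the 6 genes read from counts, 1 was called at day 0, against 0 in the fit of the day 0 libraries alone and by FPKM without a filter, and 0 to 2 as libraries were left out. Day 6 calls numbered 6741, against 11055 in a fit of the day 6 libraries alone and 4285 to 5411 with libraries left out. Interaction calls numbered 2708, against 1434 to 3943, with 1 to 2 of the 6 genes called. Changes near 0 turned in sign: Fgfr2 in Notch1-/- cells over time (0.03) was -0.14 with upper quartile scaling, -0.02 with RLE and -0.01 with DESeq2, and -0.23 to 0.56 with libraries left out. Notch1 over time in Notch1-/- cells (0.44) was -0.07 by FPKM with a pseudocount of 1, with and without a filter, and -0.22 with 0.1, and in the wild type it ranged from -0.51 to 0.18 with libraries left out. Fgfr1 at day 6 (0.06) was -0.03 in all 3 FPKM settings and -0.07 to 0.16 with libraries left out. Leaving out libraries also turned Fgf3 at day 0 (-0.28 to 0.56), at day 6 (-0.58 to 0.05) and in the interaction (-0.83 to 0.04), Fgf10 at day 0 (-0.20 to 0.45), and Spry4 by FPKM at day 0 (-0.20 to 1.09) and in the interaction (-0.08 to 1.22). The cause was not tested. With the replicate number as a block across all libraries, Fgf5 in the wild type (1.06, adjusted p = 0.0396) and, in Notch1-/- cells over time, Fgf15 (0.67, adjusted p = 0.043) and Spry4 (-1.38, adjusted p = 0.0272) became called.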
